A study of Mus musculus with 15 samples.

Results

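The members are the probes on the array for conjugating enzymes, found as all non-control probes whose gene name in the scanner files starts with Sult, Ugt1, Ugt2 or Gst. There were 55 such probes for 42 gene names, of 41174 non-control probes. Sulfotransferases (Sult) had 14 probes for 11 genes, glucuronosyltransferases (Ugt1 and Ugt2) 15 probes for 11 genes, and glutathione transferases (Gst) 26 probes for 20 genes.

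Colon cells were laser microdissected from male Apc+/Min-FCCC mice on a C57BL/6J background, in which one allele of Apc, a brake on Wnt signalling, is mutated and adenomas form in the colon; all groups share this allele. Mice underwent colonoscopy at 6 to 8 weeks of age and ate drugged or plain chow for 7 days. Treated adenomas came from mice given sulindac, a nonsteroidal anti-inflammatory drug, at 300 ppm together with the cholesterol-lowering statin atorvastatin at 100 ppm (4 arrays), and untreated adenomas from mice on plain chow (3 arrays). Tumor-bearing epithelium is normal colon epithelium of tumor-bearing mice given atorvastatin at 100 ppm (4 arrays), and tumor-free epithelium is that of tumor-free mice given the same (4 arrays). For tumor-bearing epithelium the labels name atorvastatin, while the protocol text gives tumor-bearing mice plain chow or both drugs; the labels were followed. Genotype, age and sex are stated in the characteristics for the other 3 groups and for tumor-bearing epithelium only in the shared protocol.

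Conjugation is the second step of the handling of drugs, dietary chemicals, hormones and bile pigments. Sulfotransferases move a sulfonate group from the donor PAPS, glucuronosyltransferases move glucuronic acid from UDP-glucuronic acid, and glutathione transferases attach glutathione, mostly to electrophiles and products of lipid oxidation. The conjugates are more soluble and leave the cell through export pumps, and mature colonocytes are known for high levels of several of these enzymes.

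Levels below are log2 intensities relative to the 75th percentile of each array, so they compare a probe between groups and not one probe with another. Arrays of a group that differed by less than the spot noise were averaged and counted as 1 sample. Within each group values are given in this order: treated adenoma array 1, then the mean of arrays 2, 3 and 4; untreated adenoma mean of arrays 1 and 2, then array 3; tumor-bearing epithelium mean of arrays 1 and 3, then arrays 2 and 4; tumor-free epithelium arrays 1 and 2, then the mean of arrays 3 and 4. That left 10 samples from 15 arrays, with 2 in each adenoma group and 3 in each epithelium group. The labels call the arrays biological replicates; for averaged arrays that could not be checked. Array 2 of tumor-bearing and array 2 of tumor-free epithelium carry different labels. Their log2 differences had a scaled median absolute deviation of 0.183 against a spot noise of 0.178 (r = 0.994). The same measure of spread was used for the averaged arrays. Both arrays were kept under their labels, and counts without both are given beside each comparison. The share of probes that Feature Extraction called well above background ran from 56.1% to 75.17% over the arrays, and the number of samples limits the precision.

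Several sequences bear on how the values can be read. The Gsta1 and Gsta2 probes are shown because they overlap on related genes, the shared stretch being in capitals, from the array design and written 5′ to 3′.
Gsta1 probe: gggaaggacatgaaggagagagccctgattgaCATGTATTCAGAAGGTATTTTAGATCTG
Gsta2 probe: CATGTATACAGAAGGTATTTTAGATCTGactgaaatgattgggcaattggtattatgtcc
Over the 28 bases in capitals 27 are identical, with 1 substitution, T8A, counted from the first capital base (Gsta1 base first, Gsta2 base last). Both genes lie on chromosome 9 in RefSeq. The Gsta2 probe lies at chr9:78408171-78408230 on build mm7, and the files give no position for the Gsta1 probe. How far transcripts of either gene bind the other probe cannot be told from these arrays, so the 2 probes are described together.

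The 250 bases before the start of Gsta1, Gsta2, Sult1d1 and Sult1b1 are shown as 2 pairs of related genes that differed together between adenomas and epithelia. They are RefSeq sequences on GRCm38.p6 in the direction of the gene, with motif matches in capitals.
Gsta1 (chr9:78230419-78230668, strand +): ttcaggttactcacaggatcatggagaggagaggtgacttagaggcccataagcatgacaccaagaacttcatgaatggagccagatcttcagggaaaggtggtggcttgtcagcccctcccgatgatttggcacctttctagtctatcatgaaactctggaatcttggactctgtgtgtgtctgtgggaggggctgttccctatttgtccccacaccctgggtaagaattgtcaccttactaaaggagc
Gsta2 (chr9:78347146-78347395, strand -): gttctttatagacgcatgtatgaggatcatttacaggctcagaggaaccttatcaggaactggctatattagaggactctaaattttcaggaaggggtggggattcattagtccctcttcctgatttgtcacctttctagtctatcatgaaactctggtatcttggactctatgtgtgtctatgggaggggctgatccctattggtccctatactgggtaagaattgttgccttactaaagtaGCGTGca
Sult1d1 (chr5:87569007-87569256, strand -): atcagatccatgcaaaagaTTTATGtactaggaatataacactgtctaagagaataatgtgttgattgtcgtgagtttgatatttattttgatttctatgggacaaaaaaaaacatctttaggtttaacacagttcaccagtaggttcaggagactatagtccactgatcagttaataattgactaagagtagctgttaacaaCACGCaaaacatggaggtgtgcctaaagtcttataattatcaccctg
Sult1b1, first listed start (chr5:87536223-87536472, strand -): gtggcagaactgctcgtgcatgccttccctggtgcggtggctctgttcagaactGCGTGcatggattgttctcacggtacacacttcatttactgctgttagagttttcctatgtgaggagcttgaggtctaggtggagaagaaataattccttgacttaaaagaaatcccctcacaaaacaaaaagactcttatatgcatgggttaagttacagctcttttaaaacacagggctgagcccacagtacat
Sult1b1, other start (chr5:87538196-87538445, strand -): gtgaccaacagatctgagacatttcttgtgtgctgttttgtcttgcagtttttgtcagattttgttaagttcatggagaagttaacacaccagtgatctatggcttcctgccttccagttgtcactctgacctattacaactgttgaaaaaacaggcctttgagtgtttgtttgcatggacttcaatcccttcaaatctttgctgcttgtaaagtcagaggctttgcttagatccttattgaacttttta
RefSeq held such a sequence for 37 of the 42 genes, at 48 starts. Searched on both strands, the antioxidant response element core TGACNNNGC was in 3 of the 48 (6.25%) and in 10.2% of all 32851 promoters, and the Ah receptor core GCGTG was in 9 (18.8%), against 28.2% of all. The Cdx2 core TTTATG was in 4 (8.33%), against 10.8% of all, and the short Hnf1 form TAATNATTA was in 0, against 0.588% of all. In one place, upstream of Gstm5, a TGACNNNGC match overlaps a GCGTG match. The upstream stretches of Gsta1 and Gsta2 were identical at 136 of 247 positions without gaps (55.1%), and those of Ugt2b37 and Ugt2b38 at 222 of 236 (94.1%). A match is only a run of letters in this window.

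In adenomas against epithelia, calls among the conjugating enzymes were mainly in the lower direction. Of the 55 member probes 38 were tested and 17 were not; of the 38, 19 were lower, 2 higher and 17 did not pass, so 55.3% were called, where 17.3% of all 27141 probes tested were called, 9.64% as lower and 7.69% as higher. Samples of the 2 tissues did not overlap for 20 of the 38, against 15.6% of all probes. The sulfotransferases had 6 probes lower and 2 higher of 10 tested with a median log2 difference of -3.43. The glutathione transferases had 12 lower and 0 higher of 25 with a median of -1.52, and the glucuronosyltransferases 1 lower of 3 with a median of -1.30. These counts include the second probes of Sult1b1 and Sult4a1, which were tested through only 1 tissue and are no independent support. With only the brightest probe of each gene, 5 sulfotransferases were lower and 1 higher of 8. In the same way 10 glutathione transferases were lower of 20, and 1 glucuronosyltransferase was lower of 3. The median over all probes tested was -0.10. Scaling to probes detected on all arrays moved that median to 0.12. Without array 2 of both epithelium groups the counts were 5 lower and 2 higher for Sult, 9 lower for Gst and 1 lower of 4 for Ugt. The share of all probes called in that fit is not given beside them. The families were not tested against each other. Because a bulk sample was measured, fewer cells of a type and less RNA per cell cannot be told apart. Drug and tissue are confounded here: both epithelia had atorvastatin, untreated adenomas had no drug and treated adenomas also had sulindac, so tissue and drug cannot be told apart.

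**Figure D1:**
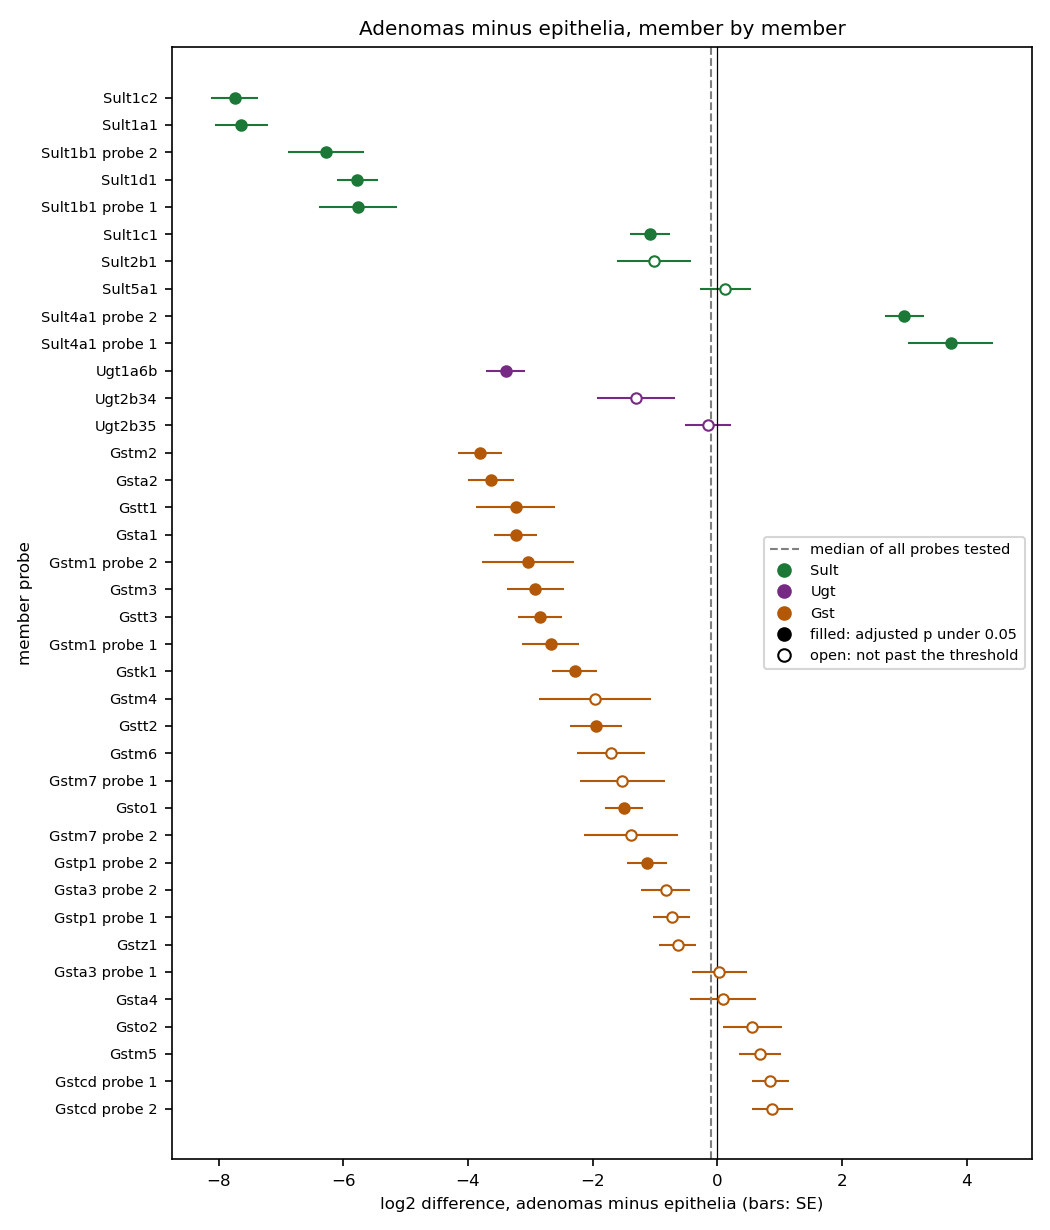
Log2 difference of adenomas minus epithelia (x axis) for the 38 tested member probes (y axis), coloured by family, with bars of 1 SE; filled points passed the threshold and the dashed line is the median of all probes tested, -0.10. Sult1c2 at -7.75 and Sult1a1 at -7.64 lie farthest left and both Sult4a1 probes lie to the right of every other member.

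Among the sulfotransferases, the members of class 1 that handle phenols, catecholamines and small drugs set the pattern. Sult1c2, an enzyme of phenols and some procarcinogens, had levels of -3.86 and -3.19 in treated adenomas and -4.75 and -5.71 in untreated adenomas, against 3.94, 3.74 and 3.19 in tumor-bearing epithelium and 2.99, 3.75 and 2.61 in tumor-free epithelium. Every adenoma sample lay far below every epithelium sample. It was 215-fold lower, a log2 difference of -7.75 ± 0.37 (SE; limma adjusted p = 2.12e-06). Sult1a1, the main phenol sulfotransferase, had -0.92 and -3.00 in treated adenomas and -3.16 and -3.62 in untreated adenomas, against 5.47, 4.90 and 4.72 in tumor-bearing epithelium and 4.68, 4.89 and 5.09 in tumor-free epithelium. Its groups did not overlap, and it was 199-fold lower, a log2 difference of -7.64 ± 0.42 (SE; limma adjusted p = 5.21e-06). For both probes the spot on untreated adenoma array 2 was an outlier and was left out, so that sample rests on array 1.

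Sult1d1, which conjugates catecholamines in the mouse, had -4.50 and -4.62 in treated adenomas and -3.36 and -3.47 in untreated adenomas, against 0.82, 1.66 and 1.86 in tumor-bearing epithelium and 2.09, 1.75 and 2.54 in tumor-free epithelium, and was 54.8-fold lower, a log2 difference of -5.78 ± 0.33 (SE; limma adjusted p = 5.66e-06). Sult1b1, a sulfotransferase of phenols and thyroid hormone, had -2.17 and -1.58 in treated adenomas and 0.94 and -1.74 in untreated adenomas, against 5.08, 4.96 and 2.62 in tumor-bearing epithelium and 4.98, 5.08 and 5.09 in tumor-free epithelium. Tumor-bearing epithelium array 4 stood well below the other epithelium samples yet above all adenomas. It was 54.7-fold lower, a log2 difference of -5.77 ± 0.63 (SE; limma adjusted p = 0.000247). Its other probe also passed as lower, but it was well above background on only 3 of 4 treated and 2 of 3 untreated adenoma arrays and was tested only through the epithelia, so no difference is given for it. Sult1b1 and Sult1d1 both lie on chromosome 5.

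Sult1c1, a relative of Sult1c2, had -3.44 and -3.21 in treated adenomas and -4.64 and -4.17 in untreated adenomas, against -2.57, -2.32 and -3.24 in tumor-bearing epithelium and -3.24, -2.45 and -2.90 in tumor-free epithelium. It was 2.11-fold lower, a log2 difference of -1.08 ± 0.33 (SE; limma adjusted p = 0.0478), close to the threshold, and its groups overlapped; its adjusted p exceeded 0.05 in 19 of 32 alternatives. Sult2b1, which sulfonates cholesterol and other hydroxysteroids, had -3.52 and -2.45 in treated adenomas and -1.08 and -0.08 in untreated adenomas, against -1.02, 0.02 and -2.25 in tumor-bearing epithelium and -1.80, -0.22 and 0.62 in tumor-free epithelium, with a difference of -1.01 ± 0.59 (SE; limma adjusted p = 0.263). Adenoma and epithelium samples overlapped. Sult5a1 had -4.49 and -3.75 in treated adenomas and -4.89 and -4.53 in untreated adenomas, against -3.19, -4.26 and -4.94 in tumor-bearing epithelium and -4.61, -4.81 and -5.44 in tumor-free epithelium, and differed by 0.13 ± 0.40 (SE; limma adjusted p = 0.847). The other sulfotransferase probes, for Sult1e1, which sulfonates oestrogens, Sult2a2 and Sult3a1, were well above background on 0 to 3 of 15 arrays and were not tested.

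Sult4a1 went the other way. This sulfotransferase is best known from the brain, and its substrates are not settled. The brighter probe had 0.43 and 0.60 in treated adenomas and 2.21 and 0.54 in untreated adenomas, against -5.11, -2.10 and -1.75 in tumor-bearing epithelium and -2.04, -2.37 and -3.43 in tumor-free epithelium, so each adenoma sample lay above each epithelium sample. It was 13.4-fold higher, a log2 difference of 3.74 ± 0.68 (SE; limma adjusted p = 0.00474). The brighter probe was well above background on 3 of 4 tumor-bearing arrays. The second probe also passed as higher, but it was well above background on 1 of 4 arrays in each epithelium group and was tested only through the adenomas, so no fold is given and it is not independent support. Neither probe was tested when all arrays of both tissues had to be well above background.

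**Figure D2:**
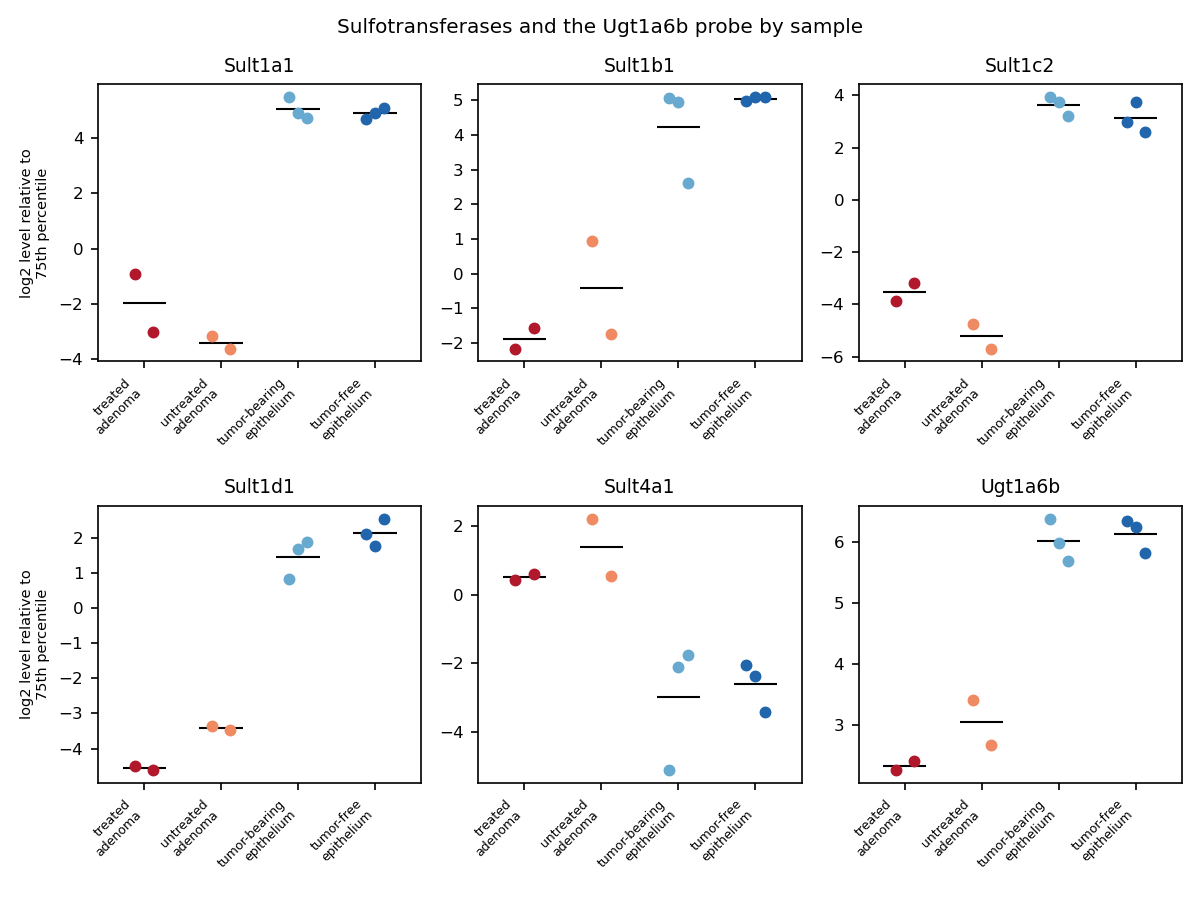
Log2 level relative to the array's 75th percentile (y axes, one scale per panel) of 5 sulfotransferases and the Ugt1a6b probe in the 10 samples, with group means as bars. Adenoma and epithelium samples do not overlap in any panel, and Sult4a1 is the panel in which adenomas are higher.

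Few glucuronosyltransferase probes gave a signal, so little can be said of this family. Only 3 of the 15 probes were well above background on every array of a group compared, and 12 were not tested. The brighter Ugt1a6b probe lies at chr1:88122519-88122578 on build mm7, beyond the probes named Ugt1a9, Ugt1a6b and Ugt1a1 along the locus. In this locus several first exons share their last exons, so a probe beyond the first exons can bind transcripts of more than 1 Ugt1a gene. It had 2.25 and 2.41 in treated adenomas and 3.42 and 2.68 in untreated adenomas, against 6.39, 5.98 and 5.69 in tumor-bearing epithelium and 6.35, 6.25 and 5.83 in tumor-free epithelium. No adenoma sample reached the lowest epithelium sample, and it was 10.5-fold lower, a log2 difference of -3.39 ± 0.31 (SE; limma adjusted p = 9.38e-05). The other Ugt1a6b probe was well above background on 1 of 15 arrays, Ugt1a1 on 2 and Ugt1a9 on 0.

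Ugt2b34, of the class that conjugates steroids, had -0.73 and -2.15 in treated adenomas and -1.22 and -1.30 in untreated adenomas, against -1.60, -0.76 and -0.07 in tumor-bearing epithelium and 0.43, -0.77 and 2.48 in tumor-free epithelium, with a difference of -1.30 ± 0.62 (SE; limma adjusted p = 0.175). Ugt2b35 had 0.67 and 0.14 in treated adenomas and -0.10 and 0.74 in untreated adenomas, against 0.08, 0.02 and 0.67 in tumor-bearing epithelium and 1.04, 0.07 and 1.19 in tumor-free epithelium, and differed by -0.15 ± 0.36 (SE; limma adjusted p = 0.802). Neither passed the threshold.

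The remaining Ugt2 probes were dim, apart from single samples or arrays. In tumor-bearing epithelium array 4, Ugt2b5 was at 1.49, where the other samples lay between -9.25 and -5.95. In that same sample Ugt2b37 was at 0.35 on one probe and -0.19 on the other, where the next samples were at -4.58 and -5.53, and Ugt2b38 was at -2.07, where the next was at -7.23. The second Ugt2b37 probe and the Ugt2b5 probe share 18 of 21 bases where they overlap, so these 2 probes may not be independent of each other. How far transcripts of either gene bind the other probe cannot be told from these arrays. Ugt2a3 was also highest in tumor-bearing epithelium array 4, at -5.06. Ugt2b1 was at -5.18 there, highest only among averaged samples. Single arrays were higher for it: treated adenoma array 4 at -3.49, tumor-free array 3 at -3.67 and tumor-bearing array 3 at -4.66. The brightest Ugt2a1 probe was highest in another sample, treated adenoma array 1, at -4.26, where the next was at -6.28. The other Ugt2a1 probes were well above background on 0 arrays. Tumor-bearing epithelium array 4 was the lowest epithelium sample for Sult1b1. Its absorptive colonocyte marker mean was 3.95, where the other epithelium samples were at 4.87 to 5.16. Its goblet marker mean was 5.07, where the others were at 4.12 to 4.67. The part of these in the Ugt2b levels was not tested, and 1 sample gives no error.

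**Figure D3:**
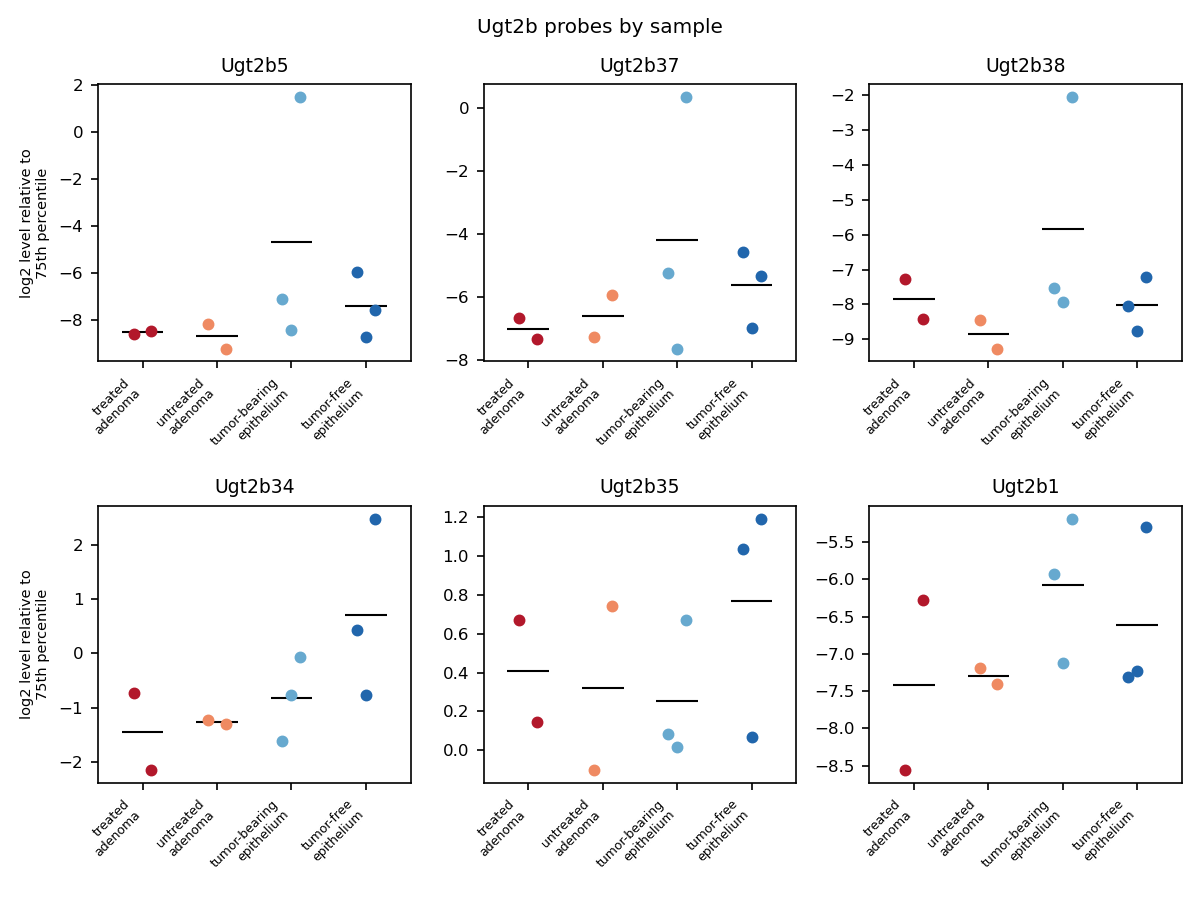
Log2 level relative to the array's 75th percentile (y axes, one scale per panel) of 6 Ugt2b probes in the 10 samples, with group means as bars. A single tumor-bearing sample is high for Ugt2b5, Ugt2b37 and Ugt2b38, so the group mean there lies far from the other 2 samples.

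Of the 25 glutathione transferase probes tested, 12 passed as lower in adenomas, for members of the mu, alpha, theta, kappa, omega and pi classes, and 13 did not pass. None passed as higher, although 1 to 4 did in alternatives. Scaling to probes detected on all arrays gave 1. Quantile normalization, array weights, near-identical arrays as a random block (named shared RNA below) or the authors' deposited table gave 2. Each array as its own sample or the slide as a block gave 3, and the replicate block gave 4. The share of all probes called in these fits is not given beside the counts. Gstm2, of the mu class, had 0.69 and 1.70 in treated adenomas and 1.32 and 0.80 in untreated adenomas, against 5.39, 5.18 and 4.80 in tumor-bearing epithelium and 4.20, 5.05 and 5.02 in tumor-free epithelium. It did not overlap between tissues and was 14-fold lower, a log2 difference of -3.81 ± 0.35 (SE; limma adjusted p = 9.68e-05). Gstm1 had 2.27 and 4.52 in treated adenomas and 3.72 and 2.96 in untreated adenomas, against 6.40, 6.19 and 5.64 in tumor-bearing epithelium and 5.61, 6.24 and 6.14 in tumor-free epithelium, and was 6.36-fold lower, a log2 difference of -2.67 ± 0.46 (SE; limma adjusted p = 0.0035), with -3.04 ± 0.74 (SE; limma adjusted p = 0.0206) on its other probe. On both probes the adenomas stayed below every epithelium sample. Gstm3 had 1.73 and 3.94 in treated adenomas and 3.33 and 2.70 in untreated adenomas, against 6.22, 6.06 and 5.51 in tumor-bearing epithelium and 5.21, 5.99 and 6.08 in tumor-free epithelium, and was 7.57-fold lower, a log2 difference of -2.92 ± 0.46 (SE; limma adjusted p = 0.00211). Gstm4, Gstm6 and Gstm7 differed by -1.96, -1.71 and -1.52 without passing the threshold, and tumor-free array 1 was far below the other epithelium samples for Gstm4, at -5.08. Gstm5, the remaining mu member, differed by 0.69 ± 0.33 (SE; limma adjusted p = 0.18). Mu-class genes are clustered on chromosome 3 and close in sequence, so probes of near-identical copies are less certain.

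The alpha class, whose members clear products of lipid oxidation, split. Gsta1 had -2.90 and -4.14 in treated adenomas and -0.18 and -0.82 in untreated adenomas, against 0.88, 1.26 and 0.93 in tumor-bearing epithelium and 1.35, 1.25 and 1.69 in tumor-free epithelium. Gsta2 had -4.48 and -5.96 in treated adenomas and -1.21 and -1.94 in untreated adenomas, against -0.29, 0.23 and 0.01 in tumor-bearing epithelium and 0.18, 0.53 and 0.71 in tumor-free epithelium. For both, untreated adenomas lay below every epithelium sample and treated adenomas lower still. Gsta1 was 9.42-fold lower, a log2 difference of -3.24 ± 0.34 (SE; limma adjusted p = 0.00021), and Gsta2 was 12.4-fold lower, a log2 difference of -3.63 ± 0.37 (SE; limma adjusted p = 0.000178). The Gsta2 probe was well above background on only 3 of 4 treated adenoma arrays, so its levels there rest partly on signal near background. Gsta3 had 2.34 and 3.13 in treated adenomas and 1.87 and 3.56 in untreated adenomas. Its levels were 3.07, 2.22 and 2.75 in tumor-bearing epithelium and 3.52, 2.25 and 2.34 in tumor-free epithelium. The groups overlapped, with a difference of 0.04 ± 0.45 (SE; limma adjusted p = 0.964). The other Gsta3 probe differed by -0.83 ± 0.39 (SE; limma adjusted p = 0.17), with overlapping groups, and did not pass either. Gsta4, known for the lipid aldehyde 4-hydroxynonenal, had -1.01 and -2.36 in treated adenomas and -0.41 and -1.65 in untreated adenomas, against -1.73, -1.28 and -0.50 in tumor-bearing epithelium and -3.00, -1.25 and -0.89 in tumor-free epithelium, and differed by 0.09 ± 0.53 (SE; limma adjusted p = 0.925).

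Theta-class Gstt1 had -6.49 and -4.99 in treated adenomas and -4.54 and -4.43 in untreated adenomas. Its levels were -1.43, -1.60 and -1.59 in tumor-bearing epithelium and -4.20, -1.76 and -0.68 in tumor-free epithelium. It was 9.43-fold lower in adenomas, a log2 difference of -3.24 ± 0.63 (SE; limma adjusted p = 0.00657). Tumor-free array 1 lay near the adenomas. The Gstt1 probe was well above background on only 3 of 4 treated adenoma arrays. Gstt3 had 1.94 and 2.35 in treated adenomas and 2.53 and 1.98 in untreated adenomas, against 5.75, 5.25 and 4.34 in tumor-bearing epithelium and 4.83, 5.19 and 4.88 in tumor-free epithelium, with no overlap between tissues, and was 7.18-fold lower, a log2 difference of -2.84 ± 0.35 (SE; limma adjusted p = 0.000531). Gstt2 had -0.41 and 0.98 in treated adenomas and 1.52 and 2.68 in untreated adenomas, against 3.90, 3.22 and 3.43 in tumor-bearing epithelium and 2.07, 3.15 and 3.08 in tumor-free epithelium, with untreated array 3 inside the epithelium range, and was 3.85-fold lower, a log2 difference of -1.95 ± 0.42 (SE; limma adjusted p = 0.0117). Gstk1, of the kappa class found in mitochondria and peroxisomes, had 1.49 and 1.94 in treated adenomas and 2.66 and 2.28 in untreated adenomas, against 5.38, 4.55 and 3.88 in tumor-bearing epithelium and 4.27, 4.33 and 3.91 in tumor-free epithelium, and was 4.89-fold lower, a log2 difference of -2.29 ± 0.36 (SE; limma adjusted p = 0.00201). Gsto1, an omega enzyme that reduces dehydroascorbate, had 3.81 and 4.32 in treated adenomas and 5.13 and 5.10 in untreated adenomas, against 6.41, 6.20 and 5.52 in tumor-bearing epithelium and 6.12, 6.13 and 6.14 in tumor-free epithelium, and was 2.81-fold lower, a log2 difference of -1.49 ± 0.30 (SE; limma adjusted p = 0.00812).

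Gstp1, the pi-class enzyme, gave different calls on its 2 probes. The brighter had 5.26 and 5.96 in treated adenomas and 5.57 and 5.69 in untreated adenomas, against 6.70, 6.48 and 6.07 in tumor-bearing epithelium and 6.28, 6.46 and 6.11 in tumor-free epithelium. It differed by -0.73 ± 0.30 (SE; limma adjusted p = 0.121), and the other by -1.13 ± 0.32 (SE; limma adjusted p = 0.0398), a call lost in 14 of 31 alternatives with an adjusted p of up to 0.167. Gstz1, an enzyme of tyrosine breakdown, had 0.62 and 0.75 in treated adenomas and 0.43 and 0.33 in untreated adenomas, against 1.33, 1.37 and 1.53 in tumor-bearing epithelium and 0.46, 1.42 and 0.89 in tumor-free epithelium, and differed by -0.64 ± 0.30 (SE; limma adjusted p = 0.167), and Gsto2, with no value on treated adenoma array 1, by 0.56 ± 0.47 (SE; limma adjusted p = 0.434). The Gstcd probes, named for a glutathione transferase domain, differed by 0.85 and 0.88. None of Gstz1, Gsto2 and Gstcd passed. A second Gsto2 probe was well above background on 1 of 15 arrays and was not tested.

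**Figure D4:**
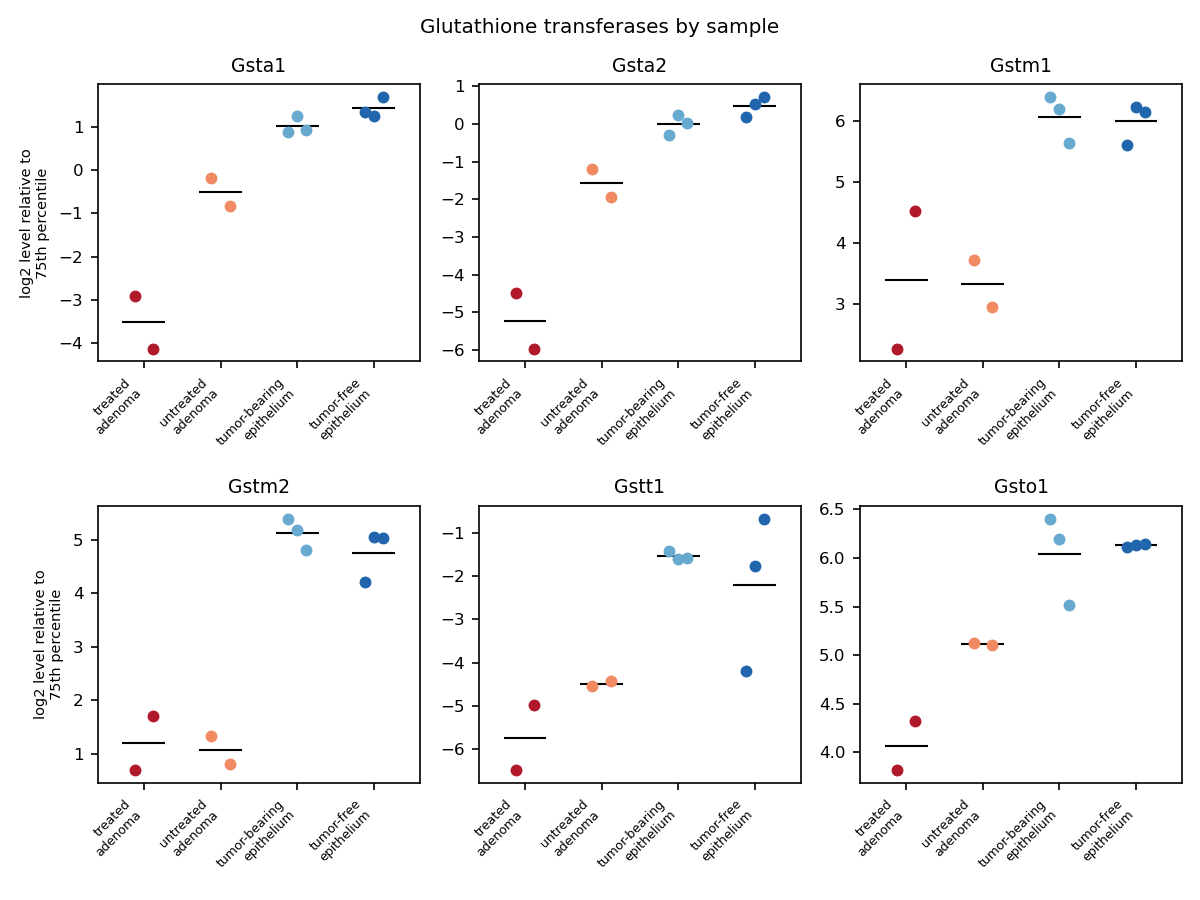
Log2 level relative to the array's 75th percentile (y axes, one scale per panel) of 6 glutathione transferases in the 10 samples, with group means as bars. For Gsta1 and Gsta2 the treated adenomas sit at the bottom and the untreated adenomas between them and the epithelia.

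Within scan dates that held both tissues, all 21 called probes kept their direction on the first 2 dates and 20 of 21 on the remaining one, where Sult1c1 did not. Each of these dates held 1 or 2 arrays per tissue, with epithelium only of the tumor-bearing group. These arrays are among those that gave the calls, so this is no independent check. Tumor-free arrays were scanned on dates of their own, so a fit with the scan date as a block could not be made for the comparison with all epithelia.

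Genes that supply, export and regulate conjugation are given from a list of related genes, with log2 differences of adenomas minus epithelia. Of 6 genes of sulfate uptake and PAPS supply, 2 were lower, namely Slc26a2, a sulfate transporter, at -4.85 ± 0.67 (SE; limma adjusted p = 0.00105), and Papss1, which makes PAPS, at -1.34 ± 0.29 (SE; limma adjusted p = 0.0122). Of 3 genes for glucuronic acid supply 1 was lower, Ugdh at -1.77 ± 0.32 (SE; limma adjusted p = 0.00447). Of 7 genes of glutathione synthesis and turnover, Slc7a11, the cystine importer, was higher at 4.90 ± 0.92 (SE; limma adjusted p = 0.00554) and Ggt6 lower at -3.04 ± 0.37 (SE; limma adjusted p = 0.000486). Against tumor-bearing epithelium alone, 1 of these 7 was higher in treated and 0 in untreated adenomas. Only 6 of them could be tested between the epithelium groups.

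Export pumps moved in both directions, 3 higher and 4 lower of 8. Abcb1a at -4.43 ± 0.46 (SE), and Abcg2 at -3.84 ± 0.46, which pump drugs and conjugates, were lower. Abcc2 at 4.23 ± 0.79, Abcc4 at 2.47 ± 0.34, and Abcc5 at 2.00 ± 0.36, were the 3 higher and were named after their values were seen. Of 13 regulators 7 were lower and 0 higher, among them Nr1i2 (PXR), a sensor of drugs, at -2.79 ± 0.36, and Pparg at -1.50 ± 0.29; Nfe2l2 (Nrf2), which acts on antioxidant genes, differed by -0.12 ± 0.27, did not pass and was named after its value was seen. Of 8 tested other conjugating enzymes 2 were lower, Mgst3 at -2.79 ± 0.55 and Mgst1 at -1.28 ± 0.28. Of 4 hydrolases, Arsa was lower at -1.36 ± 0.37 and Gusb higher at 1.21 ± 0.27.

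Cell-type markers moved with the same contrast. Of 13 absorptive colonocyte markers 10 were lower in adenomas and 0 higher, with a mean level of -0.56 to 2.33 over the adenoma samples and 3.95 to 5.16 over the epithelium samples. Of 8 pan-epithelial markers 1 was lower, and of 12 Wnt targets 11 were higher. Enteroendocrine markers were lower for 6 of 7 tested and neutrophil markers higher for 4 of 4. Only 1 of these neutrophil markers, and 3 of the 5 mast cell markers below, could be tested between the epithelium groups. The rest of both lists were tested only through the adenomas. Only 5 of the enteroendocrine markers could be tested between the adenoma groups, and the rest were tested only through the epithelia. The direction of such calls was largely set by the filter. B and plasma cell markers were lower for 3 of 4 tested, red blood cell markers for 3 of 3, goblet markers for 4 of 8 and smooth muscle markers for 3 of 6. Of 5 mast cell markers 2 were higher and 1 lower, and of 5 endothelial markers 1 was higher; fibroblast, T cell and macrophage markers had 0 calls of 6, 5 and 6 with limma. Their part in the enzyme differences was not tested.

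**Figure D5:**
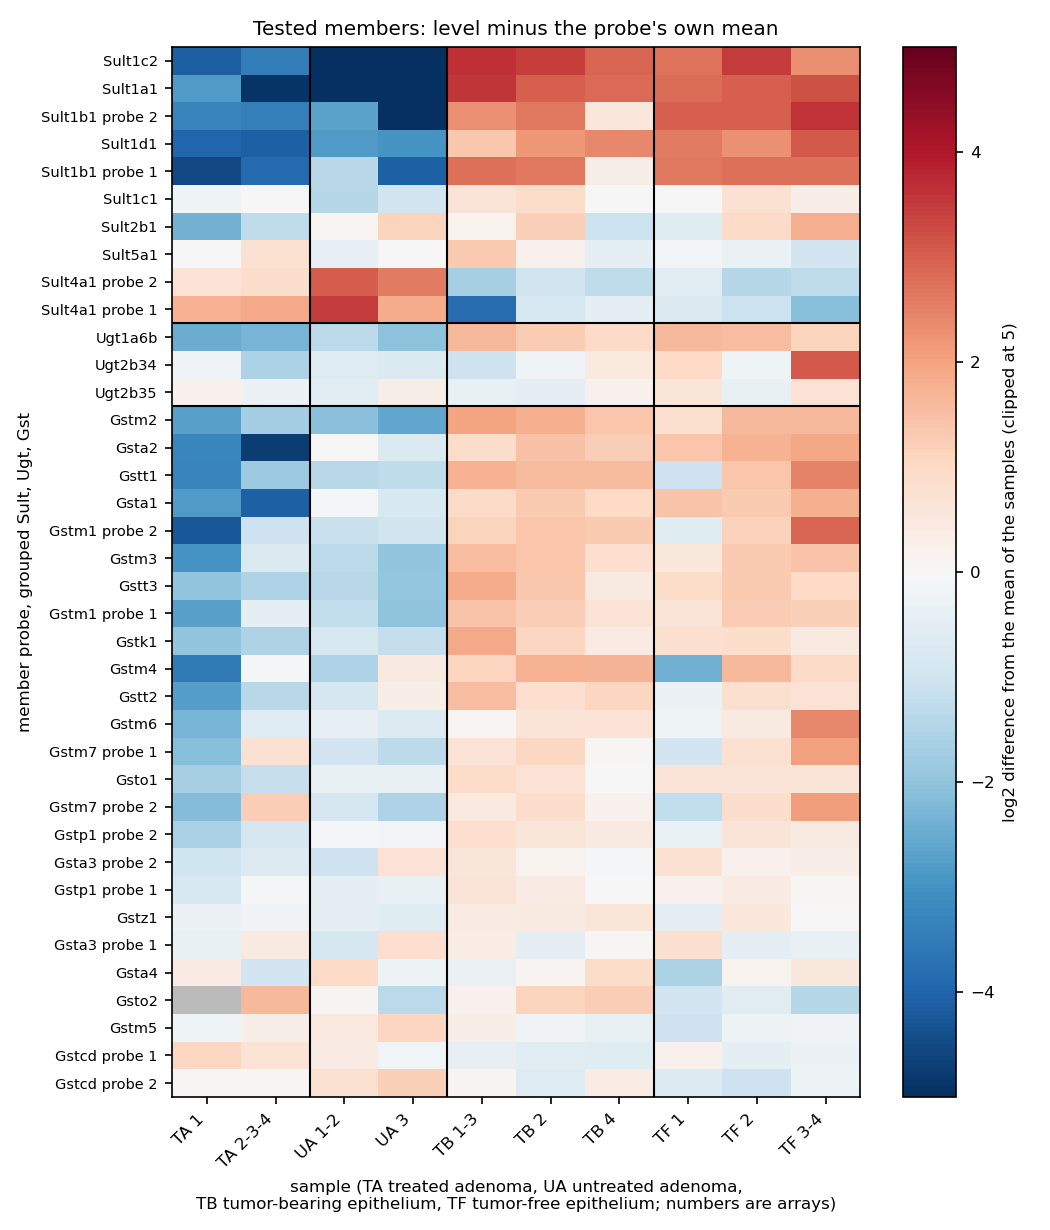
Each tested member probe (rows) in each of the 10 samples (columns), as the log2 difference from that probe's own mean over the samples, clipped at 5; grey marks a missing value. Sult1c2, Sult1a1, Sult1b1 and Sult1d1 separate the adenoma columns from the epithelium columns, and Gsta1 and Gsta2 are lowest in the treated adenomas.

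Treated and untreated adenomas were compared to ask what the drugs changed within the tumor. No member passed the threshold: 0 of 37 tested, where 0.146% of all probes (37 of 25322) were called, 0.0948% as higher and 0.0513% as lower; 10 members had an unadjusted p under 0.05, as did 2864 of the 25322 probes. Without array 2 of both epithelium groups no member passed. Gsta2 and Gsta1 came closest, though the Gsta2 probe was well above background on only 3 of 4 treated adenoma arrays. Gsta2 was 12.6-fold lower, a log2 difference of -3.65 ± 0.57 (SE; limma adjusted p = 0.0536), and Gsta1 was 8.1-fold lower, a log2 difference of -3.02 ± 0.52 (SE; limma adjusted p = 0.0803); in both, treated and untreated samples did not overlap, as happened for 20 members and for 47.1% of all probes. Within the scan dates that held both groups, Gsta2 differed by -3.26 and -4.11 and Gsta1 by -2.74 and -3.34. With near-identical arrays averaged, Gsta2 passed in 5 of 18 alternatives and Gsta1 in 1 of 19. The other 5 fits kept near-identical arrays apart, among them the fit with these arrays as a random block, which models them as correlated. Gsta2 passed in 4 of these fits and Gsta1 in 5. There the limma adjusted p ran from 3.95e-05 to 0.176 for Gsta2 and from 4.78e-05 to 0.0209 for Gsta1.

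The other members named here did not pass either. Sult1c2 had -3.86 and -3.19 in treated adenomas, against -4.75 and -5.71 in untreated adenomas, a difference of 1.70 ± 0.57 (SE; limma adjusted p = 0.337). Sult2b1 had -3.52 and -2.45 in treated adenomas, against -1.08 and -0.08 in untreated adenomas, a difference of -2.41 ± 0.92 (SE; limma adjusted p = 0.378). Ugt1a6b differed by -0.71 ± 0.48 (SE; limma adjusted p = 0.611) and Ugt2b34 by -0.17 ± 0.97 (SE; limma adjusted p = 0.967). For Gsto2, treated adenoma array 1 had no value, so the 2.21 difference rests on 1 treated sample. Of the 13 absorptive colonocyte markers 1 was lower in treated adenomas, with a median difference of -2.07. Goblet markers had 0 calls of 7 and a median of -1.93, with mean levels of -0.06 and 1.12 in treated adenomas, against 3.18 and 2.90 in untreated adenomas. Of 5 mast cell markers 1 was lower, with a median of -3.39. The part of these in the Gsta values was not tested.

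Tumor-bearing and tumor-free epithelium were compared to ask whether epithelium differs with a tumor nearby. No member passed, 0 of 37, and no probe did, 0 of 24886 (0%), while 716 had an unadjusted p under 0.05. Samples did not overlap for 3 members of 37, against 7.33% of all probes. With limma, the largest absolute moderated t among members was that of Gsto2, which had 0.44, 1.32 and 1.45 in tumor-bearing epithelium, against -0.74, -0.36 and -1.19 in tumor-free epithelium, and differed by 1.84 ± 0.51 (SE; limma adjusted p = 0.99), with an unadjusted p of 0.00597. It was the only member with an unadjusted p under 0.05. Sult1d1 differed by -0.68 ± 0.41 (SE; limma adjusted p = 0.99) and Sult5a1 by 0.82 ± 0.51 (SE; limma adjusted p = 0.99). Ugt2b34 differed by -1.52 ± 0.78 (SE; limma adjusted p = 0.99), with tumor-free arrays 3 and 4 far above the rest, and Ugt2b35 by -0.51 ± 0.45 (SE; limma adjusted p = 0.99). Gstt2 differed by 0.75 ± 0.53 (SE; limma adjusted p = 0.99). The near-identical array 2 of each group lies in this contrast, and without both no member passed.

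Each adenoma group was also set against tumor-bearing epithelium, which also came from tumor-bearing mice. Neither comparison is matched for drug. By the labels that epithelium had atorvastatin, untreated adenomas had no drug and treated adenomas also had sulindac, so tissue and drug cannot be told apart. These 2 comparisons share the epithelium samples, so their values are given side by side. In untreated adenomas 12 members were lower and 2 higher of 38 (36.8%, where 9.06% of all probes were called, 4.73% as lower and 4.32% as higher), and samples did not overlap for 31, against 44% of all probes. In treated adenomas 18 were lower and 1 higher of 37 (51.4%, where 11% of all probes were called, 5.53% as lower and 5.47% as higher), and samples did not overlap for 27, against 43.5% of all probes. Some of these calls were tested through only 1 tissue. In both comparisons these were the second Sult1b1 probe, through the epithelium, and the brighter Sult4a1 probe, through the adenomas. The second Sult4a1 probe in untreated adenomas and the Gsta2 and Gstt1 probes in treated adenomas were others. The share of all probes called is not given for the fits that follow. Their counts therefore do not show whether members lost more calls than other probes did. Without array 2 of both epithelium groups the untreated comparison had 10 calls and the treated comparison 13. Leaving out untreated adenoma array 3 gave 6 calls in all and leaving out arrays 1 and 2 gave 9. Without treated adenoma array 1 there were 9 calls in the treated comparison.

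Sult1c2, Sult1a1, Sult1d1 and Sult1b1 passed as lower in both adenoma groups. Sult1c1 differed by -0.62 ± 0.45 (SE; limma adjusted p = 0.389) in treated adenomas, where it did not pass, and by -1.69 ± 0.46 (SE; limma adjusted p = 0.0475) in untreated adenomas. The untreated call of Sult1c1 was lost in 13 of 24 alternatives. Sult1c2 differed by -7.15 ± 0.52 (SE; limma adjusted p = 5.42e-05) in treated adenomas and by -8.85 ± 0.52 (SE; limma adjusted p = 2.64e-05) in untreated adenomas. Sult1a1 differed by -6.99 ± 0.59 (SE; limma adjusted p = 0.000131) in treated and by -8.42 ± 0.60 (SE; limma adjusted p = 7.73e-05) in untreated adenomas. Sult1d1 differed by -6.01 and -4.87 in the same order, and Sult1b1 by -6.09 and -4.62, all past the threshold. Ugt1a6b differed by -3.69 ± 0.43 (SE; limma adjusted p = 0.000751) in treated and by -2.98 ± 0.43 (SE; limma adjusted p = 0.0031) in untreated adenomas.

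Glutathione transferases gave 12 calls of 25 in treated and 5 of 25 in untreated adenomas. Gsta2 differed by -5.21 ± 0.52 (SE; limma adjusted p = 0.000302) in treated adenomas and by -1.56 ± 0.52 (SE; limma adjusted p = 0.0937) in untreated adenomas. Its probe was well above background on only 3 of 4 treated adenoma arrays. Gsta1 differed by -4.54 ± 0.47 (SE; limma adjusted p = 0.000407) in treated adenomas and by -1.52 ± 0.48 (SE; limma adjusted p = 0.0791) in untreated adenomas. A call in one comparison only is no test of the difference between adenoma groups, which is the treated against untreated comparison above. Gstm2, at -3.93 in treated and -4.06 in untreated adenomas, and Gstt3, at -2.97 in treated and -2.86 in untreated adenomas, passed in both. So did Gstm3 and Gstk1. Sult4a1, on its brighter probe, was higher by 3.50 ± 0.96 (SE; limma adjusted p = 0.0437) in treated and by 4.36 ± 0.96 (SE; limma adjusted p = 0.0213) in untreated adenomas. The treated call was lost in 11 of 24 alternatives and the untreated call in 4 of 23.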

How the data were processed

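Gene expression was measured on 15 one-colour Agilent whole mouse genome arrays with Cy3-labelled RNA, amplified over rounds of linear amplification from 10 ng per sample, per the labels' protocols. The deposited intensity values per spot came from Agilent Feature Extraction 9.5.3, per the submitters' processing notes, and were spatially and multiplicatively detrended within each array, with no scaling between arrays, per the file headers. The authors also deposited a table of log2 values, used only as an alternative; its 4 tumor-bearing columns match the scanner files of that group in reverse order, and how it was normalized is not stated in the sources.

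From the intensity, log2 values minus each array's 75th percentile were computed; outlier spots were left out and spots of a probe averaged. Near-identical arrays of a group were averaged, giving 10 samples. Differences were fitted with limma 3.58.1 (R 4.3.3) on all 4 groups, at 6 residual degrees of freedom, by two-sided tests whose p-values were adjusted over all probes tested (Benjamini-Hochberg, threshold 0.05). Tests took in probes that exceeded background well on all arrays of 1 or more of the groups compared. The fits were tested on simulated data. The members and lists were chosen with earlier results of these data known. A gene with several probes is represented by the brightest one. Per-sample values are given per family for up to 8 called genes by absolute moderated t in each direction between tissues, up to 4 called in other comparisons or 2 where none passed, and for a list of well-known members. P-values measure only the spread between these samples, some of which may be technical.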

Additional observations from a re-analysis of the deposited data

How the results depend on the processing

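Counts of called members, out of those tested, were recomputed with limma under every alternative that could be fitted. The share of all probes called in the same fit is not given beside them. They therefore do not show whether members changed more than other probes did. For adenomas against epithelia the main count of 21 ranged from 17 to 22 when arrays were left out and from 17 to 33 otherwise, and 16 of the 21 called probes passed in every alternative; the others were Gsto1, Gstt2, Sult1c1 and the second probes of Gstm1 and Gstp1. The replicate block on separate arrays gave 33. For treated against untreated adenomas the count of 0 stayed 0 when arrays were left out and became 1 with normexp, quantile normalization, 1 probe per gene, the shared RNA as a random block or the authors' deposited table, 2 with array weights, 7 with the slide or the scan date as a block, 9 with each array as its own sample and 10 with the replicate block. Tumor-bearing against tumor-free epithelium stayed at 0 in all 24 alternatives. For untreated adenomas against tumor-bearing epithelium, 14 became 6 to 14 when arrays were left out, 25 with each array as its own sample, 27 with the slide, 24 with the scan date and 25 with the replicate block. For treated adenomas against tumor-bearing epithelium, 19 became 9 to 20 when arrays were left out and 13 to 26 otherwise. Against tumor-bearing epithelium, 6 of the 14 called probes in untreated and 9 of the 19 in treated adenomas passed in every alternative that tested them. Fits on separate arrays count near-identical arrays separately, and only the shared RNA block models all of them as correlated. Whether near-identical arrays share RNA could not be checked. The cause of each change was not tested. Ugt2b34 between treated and untreated adenomas (main value -0.17) turned to 0.54 without treated adenoma arrays 2, 3 and 4 and was -0.89 without array 1. Same-numbered arrays deviated from their group means with correlations of -0.306 to 0.546 over 21 pairs. Differently numbered arrays were not compared, so these values cannot tell whether the numbers pair the samples. The main fits took the samples as unpaired. The scan date as a block could not be fitted where tumor-free epithelium is involved, and restricting the adenoma against epithelium fit to its groups is the fit itself. Signal near background limits the glucuronosyltransferases, of which 12 of 15 probes were not tested.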
